A study of Mus musculus with 4 samples.

Results

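The proteasome subunit genes were followed across immune cell classes of the mouse nasal mucosa. Members were chosen by symbol, as every gene whose name starts with Psma, Psmb, Psmc, Psmd or Psme and a digit, with at least 50 unique molecular identifiers (UMIs, 1 for each captured mRNA molecule) over the 4 libraries. Of 45 such genes 44 were kept, out of 27998 genes listed and 16880 with the same minimum. Psmb11, the subunit of the thymus-specific proteasome, did not reach the minimum with 7 UMIs. The 44 members were split into 5 inducible genes (Psmb8, Psmb9, Psmb10, Psme1 and Psme2) and 39 constitutive genes. The symbol rule also takes in Psmc3ip, which is a recombination factor and no proteasome subunit, the Psme2-like copy Psme2b, and Psma8, a subunit known from testis. These genes held 0.140%, 0.565% and 0.00701% of the constitutive UMIs. Reads of Psme2 and Psme2b may be split between these near-identical copies, so both values are uncertain.

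Single-cell RNA sequencing was performed on nasal mucosa cells selected for the leukocyte marker CD45 from C57BL/6 mice aged 8 weeks, after enzymatic digestion of the tissue. The Vehicle group received vehicle, and the Vehicle-OVA group also received ovalbumin, the allergen of a mouse model of allergic rhinitis in which animals are sensitised and then challenged through the nose. The Ribavirin and Ribavirin-OVA groups received the antiviral drug ribavirin, without and with ovalbumin. Each group was 1 library, the number of mice behind a library is not given in the sources used here, and no difference between groups has a replicate check. Intervals given below cover counting error only, at the 95% level, and no p-value was computed. Runs of 4 values are ordered as Vehicle, Vehicle-OVA, then Ribavirin, then Ribavirin-OVA.

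The proteasome degrades proteins tagged with ubiquitin. Its barrel-shaped core is built of alpha rings and beta rings, and the catalytic sites lie on the beta subunits Psmb5 (chymotrypsin-like), Psmb6 (caspase-like) and Psmb7 (trypsin-like). A regulatory particle of ATPases (Psmc genes) and non-ATPases (Psmd genes) binds and unfolds substrates. In immune cells and under interferon gamma, newly made cores take up Psmb8, Psmb9 and Psmb10 in place of Psmb5, Psmb6 and Psmb7, forming the immunoproteasome, and Psme1 and Psme2 form an activator cap. Such particles are known for supplying peptides for presentation on class I MHC molecules.

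The inducible genes lie in close pairs on the mouse genome (GRCm38, GENCODE M21 positions). Psmb8 (chr17:34197721-34201454, plus strand) and Psmb9 (chr17:34181987-34187764, minus strand) are separated by 9956 bases within the MHC region. Psme1 (chr14:55578123-55581529, plus strand) and Psme2 (chr14:55587441-55591113, minus strand) are separated by 5911 bases, and Psmb10 (chr8:105935735-105938444, minus strand) stands alone. The counterpart Psmb5 lies at chr14:54614119-54618022 on the minus strand, Psmb6 at chr11:70525367-70527858 on the plus strand and Psmb7 at chr2:38588036-38644087 on the minus strand.

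Promoters were searched for 3 short motifs, because members that moved together are described below. RefSeq windows (GRCm38.p6) of 250 bases before the transcription start were at hand for 37 of the 44 members and for 32851 promoters in all, and both strands were read. The letters TTCNNNGAA, a palindromic interferon gamma-type element, stood in 7.02% of all windows, in 1 of 5 inducible members (Psmb8) and in 0 of 32 constitutive members. An antioxidant-type element, TGACNNNGC, stood in 10.2% of all windows, in 0 of 5 inducible members and in 5 of 32 constitutive members (Psmb5, Psmb6, Psmc6, Psmd9 and Psmd12). An interferon-type element, GAAA followed by any 2 bases and again GAAA, stood in 2.98% of all windows, in 0 of 5 inducible members and in 3 of 32 constitutive members (Psmb3, Psmd4 and Psmd9). A match is a run of letters and not a bound site, and the absence of a match refers to these letters in these windows only. The matches of Psmb8 and of its counterpart Psmb5, with Psmb6 beside them, are shown on the strand of the gene with the motif in capitals. They end 88, 38 and 0 bases before the start that RefSeq gives. This start is not always the outer end of the GENCODE gene printed above, and for Psmb8 the match lies inside that longer span.
Psmb8, chr17:34198088-34198116, plus strand: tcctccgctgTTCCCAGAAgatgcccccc
Psmb5, chr14:54618024-54618052, minus strand: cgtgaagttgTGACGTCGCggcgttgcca
Psmb6, chr11:70525338-70525356, plus strand: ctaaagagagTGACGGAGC

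The libraries held 10311 to 28277 cell barcodes and 91742940 to 171873110 UMIs, with a median of 3389 to 4952 UMIs per barcode. Pairs of libraries shared 57 to 174 barcodes, at most 0.909% of a library. After the cell filters 79.6% to 87.3% of cells were placed in 1 of 14 classes by marker UMIs, and 8.74% to 14.8% carried markers of several classes and were left out. Of the classes, 11 had at least 50 cells in every library. Cells with epithelial and olfactory neuron markers were present despite the CD45 selection. The monocyte-like class was led by Camp, Ngp and Prtn3 beside its own markers, the T cell-like class by Il17a, and the epithelial-like class had 0 of its 6 markers among its 10 leading genes. The Ribavirin library held no barcode under 1782 UMIs, while the others reached down to 500 or 501.

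In Vehicle, the inducible sum differed more between cell classes than the constitutive sum did. Summed over the set, the level of the 5 inducible genes, as the UMIs per 1000000 UMIs of the class (CPM), was highest in conventional dendritic cell-like cells at 3696 CPM and lowest in epithelial-like cells at 620 CPM, a 5.97-fold range. Epithelial cells are not leukocytes, and the next lowest class, group 2 innate lymphoid cell-like, stood at 1470 CPM. The range among the leukocyte-like classes was therefore narrower. Macrophage-like cells had 2070 CPM (2056 to 2083), T cell-like cells 1946 CPM (1930 to 1962) and neutrophil-like cells 1580 CPM (1563 to 1596). Monocyte-like cells stood at 2721 CPM and plasmacytoid dendritic cell-like cells at 2221 CPM, and the B cell-like, plasma cell-like, NK cell-like and group 2 innate lymphoid cell-like classes stood close together at 1470 to 1640 CPM. Dendritic cells are professional antigen-presenting cells, and the conventional ones held the highest inducible level in all 4 libraries (3696, 2397, 3539 and 2127 CPM).

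The constitutive sum had another order. It was highest in plasma cell-like cells, the antibody-secreting cells, in all 4 libraries (5436, 5037, 5308 and 5827 CPM) and lowest in neutrophil-like cells in all 4. Its range between classes was 1.73-fold in Vehicle, 4.16-fold in Vehicle-OVA, 2.27-fold in Ribavirin and 2.72-fold in Ribavirin-OVA, against 4.69-fold to 6.51-fold for the inducible sum. The wider constitutive range in Vehicle-OVA came with the neutrophil-like class alone at 1211 CPM, the next lowest class being B cell-like at 3146 CPM. For the inducible sum the epithelial-like class was lowest in each library except Vehicle-OVA, where the neutrophil-like class was.

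**Figure D1:**
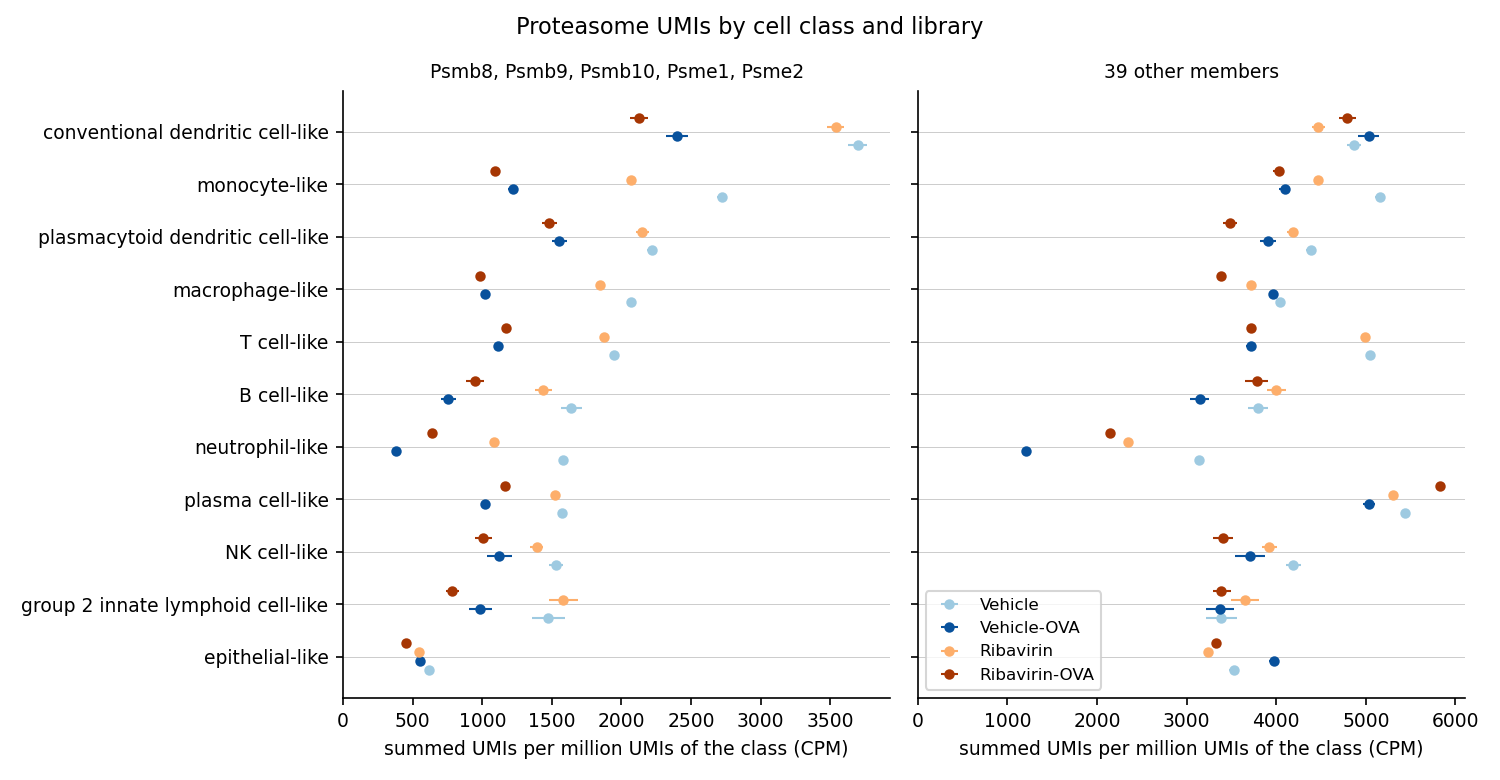
Summed level in CPM of the 5 inducible genes and of the 39 constitutive genes in 11 cell classes and 4 libraries, with exact Poisson intervals (counting error only). Conventional dendritic cell-like cells have the highest inducible level in each library, and the neutrophil-like class the lowest constitutive level in Vehicle-OVA at 1211 CPM.

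Olfactory neuron-like cells, which are not leukocytes, served as the class to compare with for free RNA. Their inducible level was 364, 180, 338 and 97.0 CPM over the libraries, from 114, 16, 251 and 90 cells. In every library this was below the level of all 11 classes. Each cell was also thinned to 1000 UMIs to compare classes at 1 depth. In Vehicle, 33.4% of neutrophil-like, 44.9% of macrophage-like and 49.9% of T cell-like cells then had a Psmb8 UMI, against 4.46% of olfactory neuron-like cells (5 of 112). Without thinning these shares were 58.4%, 93.6%, 90.6% and 21.9%, at median depths of 2365.5, 10058, 4208 and 6185 UMIs.

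Among cells in Vehicle, the catalytic genes differed in their proportions between classes. The share of the inducible gene in the UMIs of each exchange pair was taken, which is read across classes and libraries and not as a ratio of proteins. Over the 3 pairs together, 78.9% of catalytic UMIs were inducible in conventional dendritic cell-like cells, 74.1% (73.5 to 74.6) in neutrophil-like, 74.6% (74.3 to 75.0) in macrophage-like and 73.1% (72.7 to 73.5) in T cell-like cells. Plasma cell-like cells were lower at 61.9% and epithelial-like cells lowest at 41.8%, and olfactory neuron-like cells had 19.5%. Neutrophil-like and macrophage-like cells did not differ beyond counting error, with a log2 ratio of inducible over constitutive sums of 0.02 between them (-0.00 to 0.04).

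The 3 exchange pairs did not give the same order. For Psmb8 against Psmb5, conventional dendritic cell-like cells led at 87.9%, followed by plasmacytoid dendritic cell-like cells at 85.8%. Psmb9 against Psmb6 was again highest in conventional dendritic cell-like cells at 73.9%, and in macrophage-like cells it was 62.6% (61.9 to 63.3). Psmb10 against Psmb7 was 56.3% in conventional dendritic cell-like cells, lower than the 70.4% (69.6 to 71.1) of macrophage-like and the 74.6% of monocyte-like cells. The class that was highest for Psmb9 in all 4 libraries (73.9%, 71.4%, 77.9% and 75.7%) was thus below macrophage-like and monocyte-like cells for Psmb10 in all 4 (56.3%, 40.7%, 55.7% and 47.1%).

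**Figure D2:**
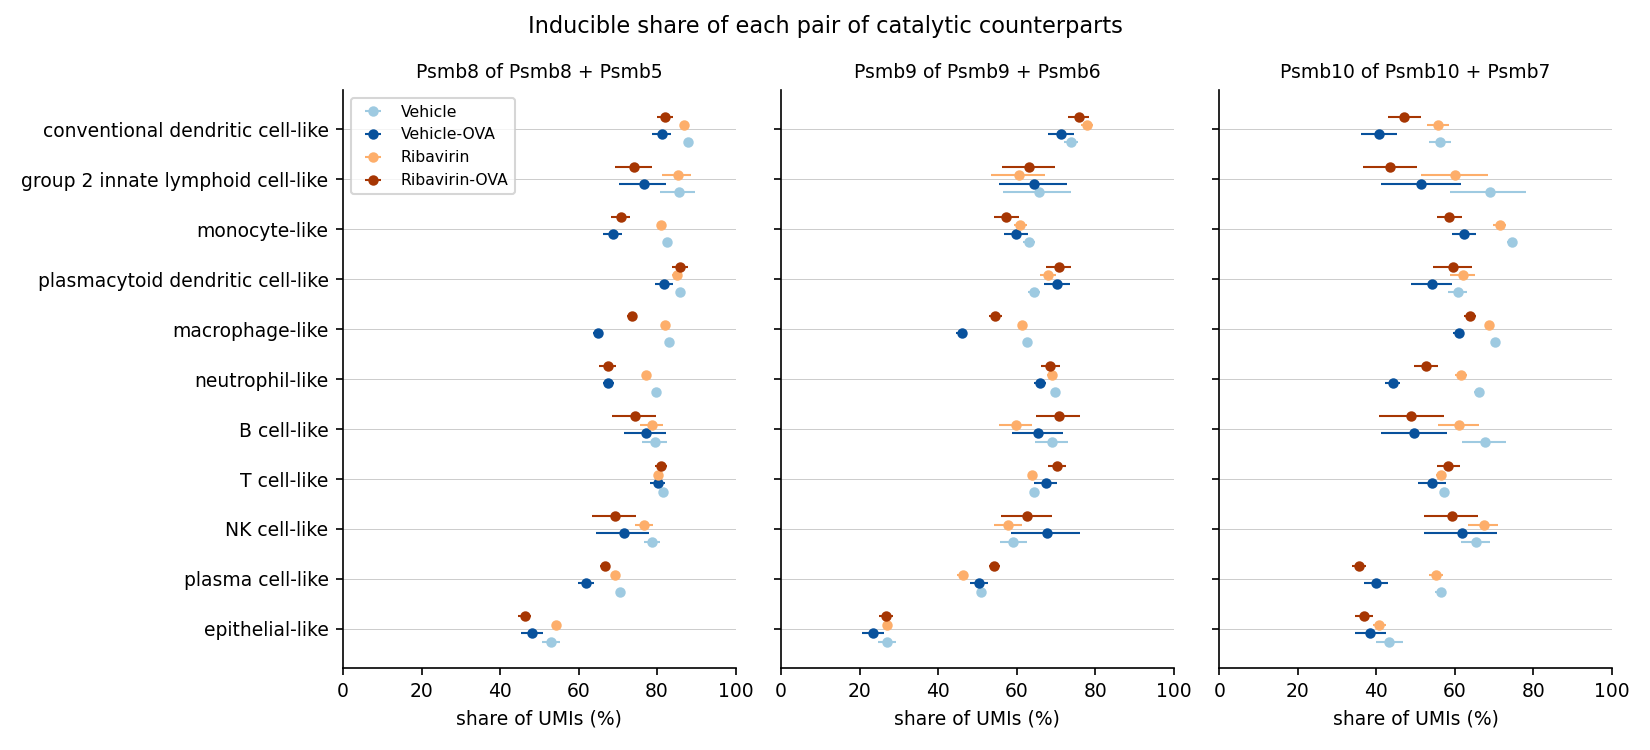
Share of the inducible gene in the UMIs of each catalytic exchange pair (percent, exact binomial intervals) by cell class and library. Conventional dendritic cell-like cells are high for Psmb8 (87.9% in Vehicle) and low for Psmb10 (56.3%), and epithelial-like cells are lowest for Psmb8 and Psmb9.

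Single members were compared over the classes as well. In Vehicle, highest over lowest class was 6.84-fold for Psmb8 (168 to 1152 CPM), 7.99-fold for Psmb9 (67.2 to 537 CPM) and 6.07-fold for Psmb10 (57.8 to 351 CPM). Psme1, the alpha chain of the activator cap, ranged 5.99-fold (191 to 1146 CPM) and Psme2, its beta chain, 4.89-fold (135 to 660 CPM). All 5 were lowest in epithelial-like cells, and 4 of 5 highest in conventional dendritic cell-like cells, Psmb10 being highest in monocyte-like cells. The widest ranges of the constitutive list were those of the copy Psme2b (15.0-fold, 1.62 to 24.4 CPM) and of Psmc3ip (8.16-fold, 3.1 to 25.3 CPM), both wider than any inducible gene, while Psma8 had no UMI in its lowest class. Constitutive catalytic subunits varied less, 2.78-fold for Psmb5 and 2.54-fold for Psmb6, both highest in plasma cell-like cells. The ATPase Psmc6 spread only 1.40-fold, and the non-ATPase Psmd12, also highest in plasma cell-like cells, 3.83-fold. For Psmd12 the lowest class was group 2 innate lymphoid cell-like, with only 14 UMIs in 100 cells. Over its mean of the classes, Psmd12 was no higher in plasma cell-like cells than Psmb5 (log2 0.71 each).

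Each class also had constitutive members that stood out from the mean of the same gene over the 11 classes. After division by the mean over the 11 classes, Psmb7 was the highest constitutive member relative to that mean in conventional dendritic cell-like cells (156 against 100 CPM, log2 0.63). Its inducible partner Psmb10 was also above its own mean over the classes there (log2 0.18). T cell-like cells stood out for Psmb3, a beta subunit without a catalytic site (356 against 229 CPM, log2 0.63). Monocyte-like cells did so for the alpha subunit Psma7 (616 against 360 CPM, log2 0.77), and NK cell-like cells for Psme3, which forms the nuclear activator (45.9 against 33.2 CPM, log2 0.46). In B cell-like cells the assembly chaperone Psmd9 led (51.1 against 34.9 CPM, log2 0.54). The largest such value in plasma cell-like cells belonged to the recombination factor Psmc3ip (25.3 against 7.92 CPM, log2 1.56), which is not a subunit.

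**Figure D3:**
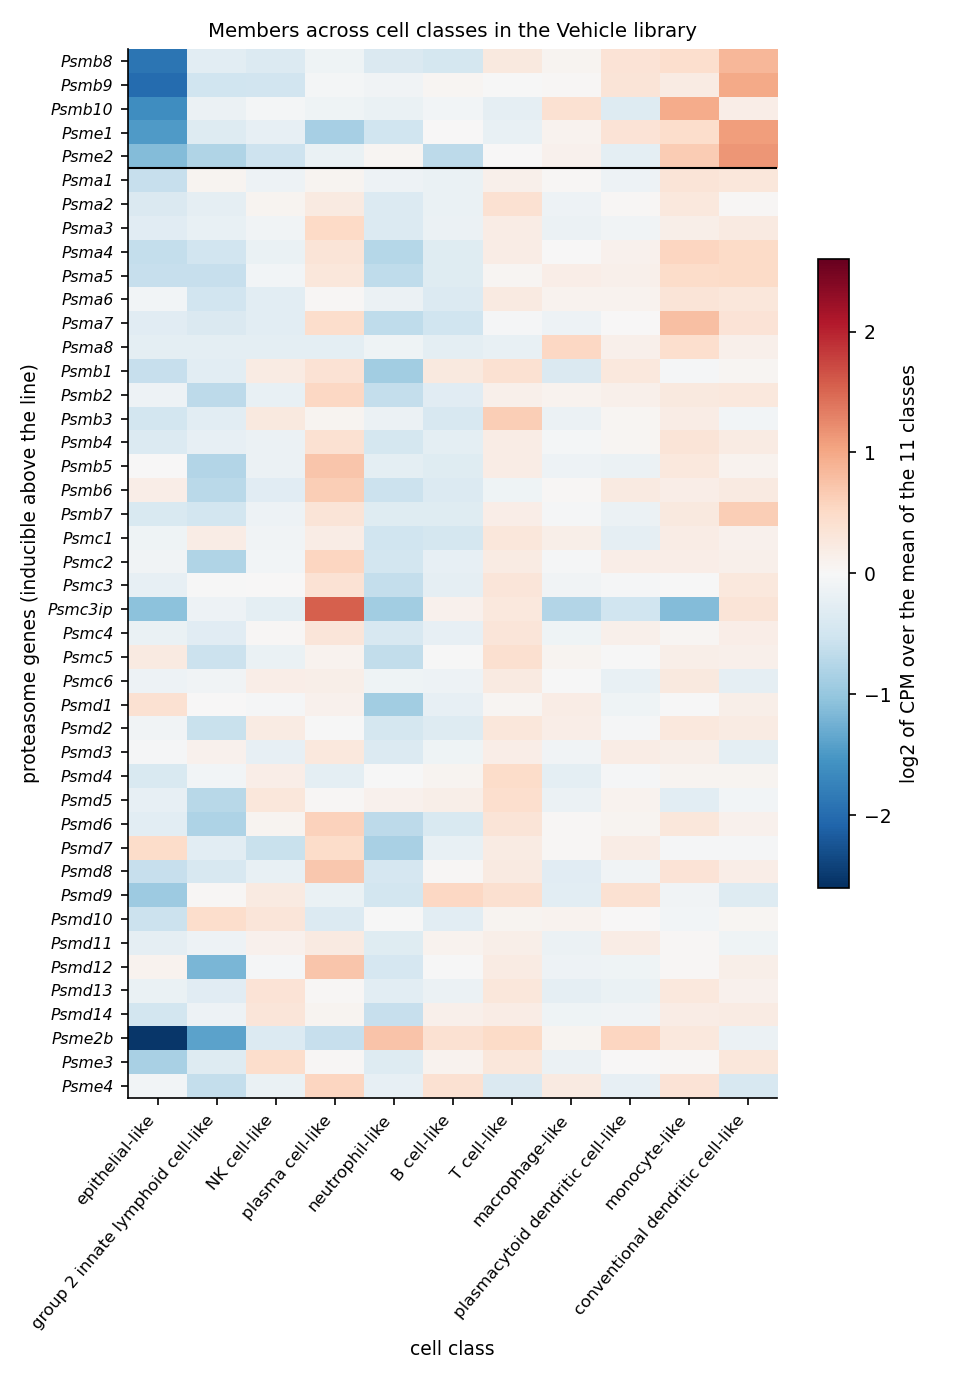
Level of each of the 44 members in 11 cell classes of the Vehicle library, as log2 CPM over the mean of the classes (colour scale of 2.6 in either direction). The inducible rows are high in conventional dendritic cell-like cells and low in epithelial-like cells, and Psmd12 and Psmb5 are among those high in plasma cell-like cells.

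The ovalbumin libraries were compared with their controls, Vehicle-OVA with Vehicle and Ribavirin-OVA with Ribavirin, in macrophage-like, neutrophil-like and T cell-like cells, the classes with the most cells in every library. Because no replicate existed, a member was counted as past the threshold at a 1.5-fold difference with at least 20 UMIs over the pair. In all 11 classes and both pairs, the inducible sum was lower relative to the constitutive sum in the ovalbumin library.

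Macrophage-like cells had the largest such difference among these 3 classes. The inducible sum was 2070, 1018, 1847 and 982 CPM, so that the ovalbumin libraries had 0.492 (0.484 to 0.500) and 0.531 (0.522 to 0.541) times the level of their controls. The constitutive sum was 4046, 3966, 3715 and 3381 CPM, which gave folds of 0.980 (0.972 to 0.989) and 0.910 (0.900 to 0.919). Inducible over constitutive was thus lower by a log2 of -1.0 (-1.02 to -0.97) in Vehicle-OVA and of -0.78 (-0.81 to -0.75) in Ribavirin-OVA. Both ovalbumin libraries lay below both control libraries for all 5 inducible genes.

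Psmb8, which replaces the chymotrypsin-like subunit, showed the largest difference of the 5 in macrophage-like cells. It stood at 666, 215, 577 and 210 CPM, folds of 0.323 (0.312 to 0.333) and 0.363 (0.350 to 0.378). Psmb9 was at 276, 123, 248 and 133 CPM (log2 -1.16 and -0.90). The cap subunit Psme1 was at 573, 325, 531 and 307 CPM (log2 -0.81 and -0.79), and Psme2 at 319, 212, 284 and 187 CPM (log2 -0.59 and -0.60). Psmb10 had the smallest difference of the catalytic genes, 234, 142, 206 and 145 CPM (log2 -0.71 and -0.51). Each replaced subunit was closer to its control than the inducible gene of its pair. Psmb5 was at 136, 117, 126 and 75.2 CPM, Psmb6 at 165, 144, 157 and 110 CPM, and Psmb7 at 98.6, 91.2, 93.9 and 81.8 CPM. In Ribavirin-OVA, however, Psmb5 was past 1.5-fold lower (log2 -0.74), a larger difference than that of Psmb10 or Psme2.

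The inducible share of catalytic UMIs in macrophage-like cells was 74.6%, 57.7% (56.9 to 58.5), 73.2% (72.8 to 73.6) and 64.6% (63.7 to 65.4). For Psmb8 against Psmb5 it was 83.0%, 64.8%, 82.0% and 73.6%, for Psmb9 against Psmb6 62.6%, 46.1%, 61.3% and 54.6%, and for Psmb10 against Psmb7 70.4%, 61.0%, 68.7% and 63.9%. In every pair the ovalbumin libraries were below both controls, with intervals that did not overlap. After thinning to 1000 UMIs, 44.9%, 16.0%, 41.0% and 18.5% of macrophage-like cells had a Psmb8 UMI (unthinned 93.6%, 63.8%, 93.1% and 65.5%), and 11.5%, 9.63%, 11.4% and 6.43% a Psmb5 UMI. Olfactory neuron-like cells had 4.46% (5 of 112) and 3.59% (9 of 251) in the controls, 0 of 15 cells in Vehicle-OVA, which allows up to 20%, and 0 of 79 cells in Ribavirin-OVA, which allows up to 3.80%. Among macrophage-like cells with at least 10 proteasome UMIs the median share of inducible UMIs per cell was 33.3%, 19.1%, 33.0% and 21.4%.

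Of 39 constitutive members tested in macrophage-like cells, 8 were past 1.5-fold higher and 3 lower in Vehicle-OVA, where 22.9% of all genes tested were higher and 10.7% lower. All 5 inducible members were lower. In Ribavirin-OVA 7 of 39 were higher and 5 lower, against 22.6% and 9.01% of all genes, and 4 of 5 inducible members were lower, Psmb10 being the exception at a log2 of -0.51. The shares of constitutive members were thus near those of all genes. The median of all genes was itself shifted, by a log2 of 0.17 in Vehicle-OVA and 0.20 in Ribavirin-OVA, while that of the constitutive members was -0.02 and -0.10. Taken relative to the median of all genes, 5 members were higher and 12 lower in Vehicle-OVA, in place of 8 and 8 over both sets. In Ribavirin-OVA 6 were higher and 18 lower, in place of 7 and 9. Here and below, the share of all genes past the threshold is not given on this scale, so such counts have no background beside them. 

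Members that were higher in macrophage-like cells included activators, non-ATPases and the copy Psme2b. Psme2b, whose reads are uncertain, was at 33.2 CPM in Ribavirin-OVA against 15.0 CPM in Ribavirin (log2 1.10). Psme4, the large activator of the core, was at 44.4, 112, 43.2 and 103 CPM (log2 1.32 and 1.24), and Psme3 at 29.7, 63.3, 31.1 and 58.9 CPM (log2 1.07 and 0.90). Psmd2, which docks ubiquitin-carrying shuttle proteins on the regulatory particle, was at 84.8, 169, 79.2 and 156 CPM (log2 0.99 and 0.97). Psmd13, a lid subunit, was at 69.1, 136, 66.9 and 125 CPM (log2 0.97 and 0.90). At the other end was Psmb2, a non-catalytic beta subunit, at 176, 93.6, 152 and 77.8 CPM (log2 -0.90 and -0.96), and Psmd7, the lid partner of the deubiquitinase, had a log2 of -0.52 and -0.81. Psmc3ip, not a subunit, was the lowest of the constitutive list in Vehicle-OVA at a log2 of -1.21.

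Neutrophil-like cells had lower levels of nearly the whole proteasome set in Vehicle-OVA. The constitutive sum was 3134 (3110 to 3157), 1211 (1201 to 1222), 2342 (2323 to 2362) and 2142 CPM (2112 to 2172), folds of 0.387 (0.382 to 0.391) and 0.915 (0.900 to 0.929) for ovalbumin over control. The inducible sum was 1580, 383, 1085 and 639 CPM, folds of 0.242 (0.238 to 0.247) and 0.589 (0.572 to 0.606). Inducible over constitutive was lower by nearly the same log2 in both pairs, -0.67 (-0.71 to -0.64) and -0.64 (-0.68 to -0.59), although the sums themselves were not. Vehicle-OVA stood apart from the other 3 libraries in both sums.

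Of 38 constitutive members tested in neutrophil-like cells, 32 were past 1.5-fold lower in Vehicle-OVA and 0 higher, and all 5 inducible members were lower. Of all genes tested 43.8% were lower and 12.4% higher there, and the median of all genes was -0.47 on the log2 scale against -1.45 for the constitutive and -1.98 for the inducible members. In Ribavirin-OVA 7 of 38 were higher and 3 lower, against 28.1% and 8.02% of all genes, with 3 of 5 inducible members lower, the median of all genes being 0.29. Relative to that median 5 members were higher and 18 lower in Ribavirin-OVA, in place of 7 and 6 over both sets. In Vehicle-OVA the same scaling left 1 higher and 32 lower, in place of 0 and 37.

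Psmb8 was again the inducible gene with the largest difference in neutrophil-like cells, at 487, 81.5, 324 and 143 CPM (log2 -2.56 and -1.17). Psmb10 was at 157, 29.1, 104 and 62.3 CPM (log2 -2.39 and -0.73), and Psmb9 at 255, 64.1, 180 and 103 CPM (log2 -1.98 and -0.80). The cap genes differed less, Psme1 at 375, 115, 267 and 185 CPM (log2 -1.69 and -0.53) and Psme2 at 306, 92.7, 210 and 146 CPM (log2 -1.71 and -0.52). Among the replaced catalytic subunits, Psmb5 was at 124, 39.1, 96.2 and 69.4 CPM, Psmb6 at 110, 33.0, 81.0 and 47.0 CPM and Psmb7 at 80.0, 36.8, 64.6 and 56.0 CPM, with Vehicle-OVA the lowest library in each. The lowest constitutive members in Vehicle-OVA were Psmb2 (log2 -2.28) and the alpha subunit Psma5 (log2 -2.17), and the same pair was lowest in Ribavirin-OVA (log2 -1.03 and -0.90). The highest in Vehicle-OVA were Psme4 (log2 0.29) and Psme2b (log2 0.03), neither past the threshold. In Ribavirin-OVA the highest were Psme2b (log2 0.98) and Psme3 (log2 0.92).

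The exchange pairs of neutrophil-like cells were uneven. The share of Psmb8 in its pair was 79.6% (78.9 to 80.3), 67.6% (66.2 to 68.9), 77.1% (76.3 to 77.9) and 67.4% (65.3 to 69.5). That of Psmb10 was 66.2%, 44.1%, 61.7% and 52.7%. By contrast the share of Psmb9 was 69.8%, 66.0%, 69.0% and 68.6%, and for this pair Ribavirin and Ribavirin-OVA did not differ beyond counting error (67.8 to 70.1 against 66.1 to 71.0). Only 51.2%, 14.1%, 41.4% and 34.8% of neutrophil-like cells held 10 or more proteasome UMIs, so no share per cell is described for them.

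T cell-like cells had lower levels of both sets in both ovalbumin libraries. The inducible sum was 1946, 1112 (1082 to 1143), 1874 (1855 to 1893) and 1172 CPM (1145 to 1199), folds of 0.572 (0.555 to 0.588) and 0.625 (0.610 to 0.641). The constitutive sum was 5045, 3714, 4991 and 3724 CPM, folds of 0.736 (0.724 to 0.748) and 0.746 (0.735 to 0.757). The log2 of inducible over constitutive was lower by -0.36 (-0.41 to -0.32) and -0.25 (-0.30 to -0.21). Over the 3 catalytic pairs together, in contrast, the inducible share differed little, at 73.1%, 70.7% (69.2 to 72.2), 71.8% (71.3 to 72.3) and 72.8% (71.6 to 74.0). Intervals of Ribavirin and Ribavirin-OVA overlapped, and Vehicle-OVA was below Vehicle beyond counting error. Against Psmb5, Psmb6 and Psmb7 alone, the inducible sum, which includes Psme1 and Psme2, was higher in the ovalbumin libraries by a log2 of 0.14 and 0.28. The direction in T cell-like cells thus depends on which inducible and which constitutive members are compared.

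Among the catalytic genes of T cell-like cells, Psmb8 was at 757, 302, 697 and 324 CPM (log2 -1.32 and -1.10), and its counterpart Psmb5 at 171, 74.4, 171 and 75.9 CPM (log2 -1.19 and -1.16). Psmb9 was at 270, 148, 270 and 174 CPM (log2 -0.87 and -0.62), and Psmb6 at 150, 71.3, 152 and 73.5 CPM (log2 -1.06 and -1.03). Psmb9 was thus closer to its control than Psmb6 in both comparisons, so its share of this exchange pair was higher with ovalbumin. Both libraries with ovalbumin lay below both without for each of these genes. The cap genes Psme1 (469, 349, 456 and 335 CPM, log2 -0.43 and -0.44) and Psme2 (298, 220, 299 and 231 CPM, log2 -0.44 and -0.37) did not reach 1.5-fold. Psmb10 passed it in Vehicle-OVA only, at 152, 94.0, 152 and 108 CPM (log2 -0.68 and -0.49), and the difference between the pairs was not tested.

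Of 38 constitutive members tested in T cell-like cells, 4 were higher and 15 lower in Vehicle-OVA, where 35.8% of all genes were higher and 11.2% lower, and 3 of 5 inducible members were lower. In Ribavirin-OVA 5 were higher and 15 lower, against 33.6% and 10.5% of all genes, and 2 of 5 inducible members were lower. The median of all genes was 0.36 and 0.34 and that of the constitutive members -0.46 and -0.44. Relative to the median of all genes 3 members were higher and 28 lower in Vehicle-OVA, in place of 4 and 18 over both sets. In Ribavirin-OVA 3 were higher and 27 lower, in place of 5 and 17. The share of all genes on this scale is not given. Psmb2 was the lowest, at 182, 68.1, 179 and 66.0 CPM (log2 -1.41 and -1.42). Psme2b, whose reads are uncertain, was the highest at 20.3, 69.6, 24.6 and 77.8 CPM (log2 1.73 and 1.62), ahead of Psme4 at 28.6, 75.0, 30.9 and 70.2 CPM (log2 1.36 and 1.16) and Psme3 at 41.0, 84.4, 44.9 and 87.7 CPM (log2 1.02 and 0.95).

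Grouped by role, members of the core stood lower than those of the regulatory particle and the activators. The summed activators Psme3 and Psme4 were higher by a log2 of 1.24 and 1.13 for macrophage-like, 1.20 and 1.06 for T cell-like and 0.056 and 0.92 for neutrophil-like cells, for Vehicle-OVA and Ribavirin-OVA over their controls. Non-ATPases of the regulatory particle stood at 0.35 and 0.22 in macrophage-like, -0.20 and -0.12 in T cell-like and -1.05 and 0.14 in neutrophil-like cells. The ATPases stood at 0.09 and -0.05, -0.33 and -0.29, and -1.21 and 0.01 in these classes. Alpha subunits of the core were lower throughout, at -0.34 and -0.41, -0.58 and -0.63, and -1.70 and -0.36. The inducible catalytic genes had the lowest value of the subunit roles plotted in macrophage-like (-1.29 and -1.08) and neutrophil-like cells (-2.36 and -0.98), and for the T cell-like class (-1.12 and -0.88) they were near the constitutive catalytic genes (-0.94 and -0.96). Parts of 1 complex thus had unequal differences in the same cells.

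**Figure D4:**
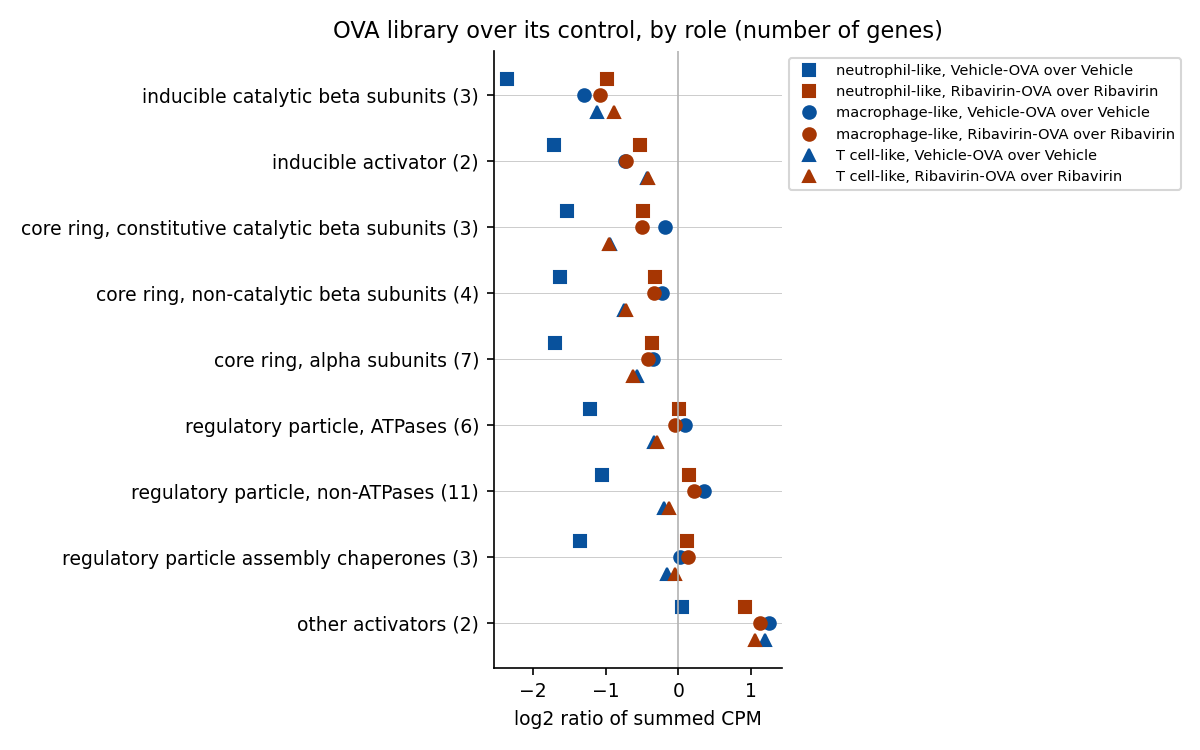
Log2 ratio of the summed CPM of each role group, ovalbumin library over its control, in 3 cell classes and 2 library pairs. The activators Psme3 and Psme4 have the highest value in each class and pair (1.24 for macrophage-like cells in Vehicle-OVA) and core and inducible groups lie lowest.

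Transcript length moved with these values, and its part in the result was not tested. The median length of the longest protein-coding transcript was 1311 bases for inducible members, 1162.5 bases for the 14 constitutive core subunits, 1819 bases for the other 25 constitutive members and 2900.5 bases for all genes. In macrophage-like cells the shortest 10% of all genes had a median log2 difference of -0.41 in Vehicle-OVA and the longest 10% of 0.35, and for the T cell-like class these were -0.55 and 0.78. Across 12850 genes in macrophage-like cells Spearman's rho between length and the log2 difference was 0.34, and across the 39 constitutive members 0.42. For T cell-like cells it was 0.50 over 11947 genes and 0.50 over 38 members. All points share the same libraries and depth, and these coefficients are descriptions.

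The inducible genes were also set against the constitutive core subunits alone. In macrophage-like cells the inducible sum over the core sum was lower by a log2 of -0.75 in Vehicle-OVA and -0.51 in Ribavirin-OVA, and in neutrophil-like cells by -0.39 and -0.40. For T cell-like cells the same values were -0.12 (-0.18 to -0.07) and 0.02 (-0.02 to 0.07). The value was smaller in size than against all constitutive members in each of the 3 classes, and for T cell-like cells of Ribavirin-OVA its interval included 0. Ribosomal protein mRNAs, which are short, moved in the same direction: they made up 16.8%, 8.56%, 16.1% and 8.88% of UMIs in macrophage-like, 7.77%, 2.40%, 6.19% and 3.35% in neutrophil-like and 24.8%, 13.7%, 23.2% and 12.7% in T cell-like cells.

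**Figure D5:**
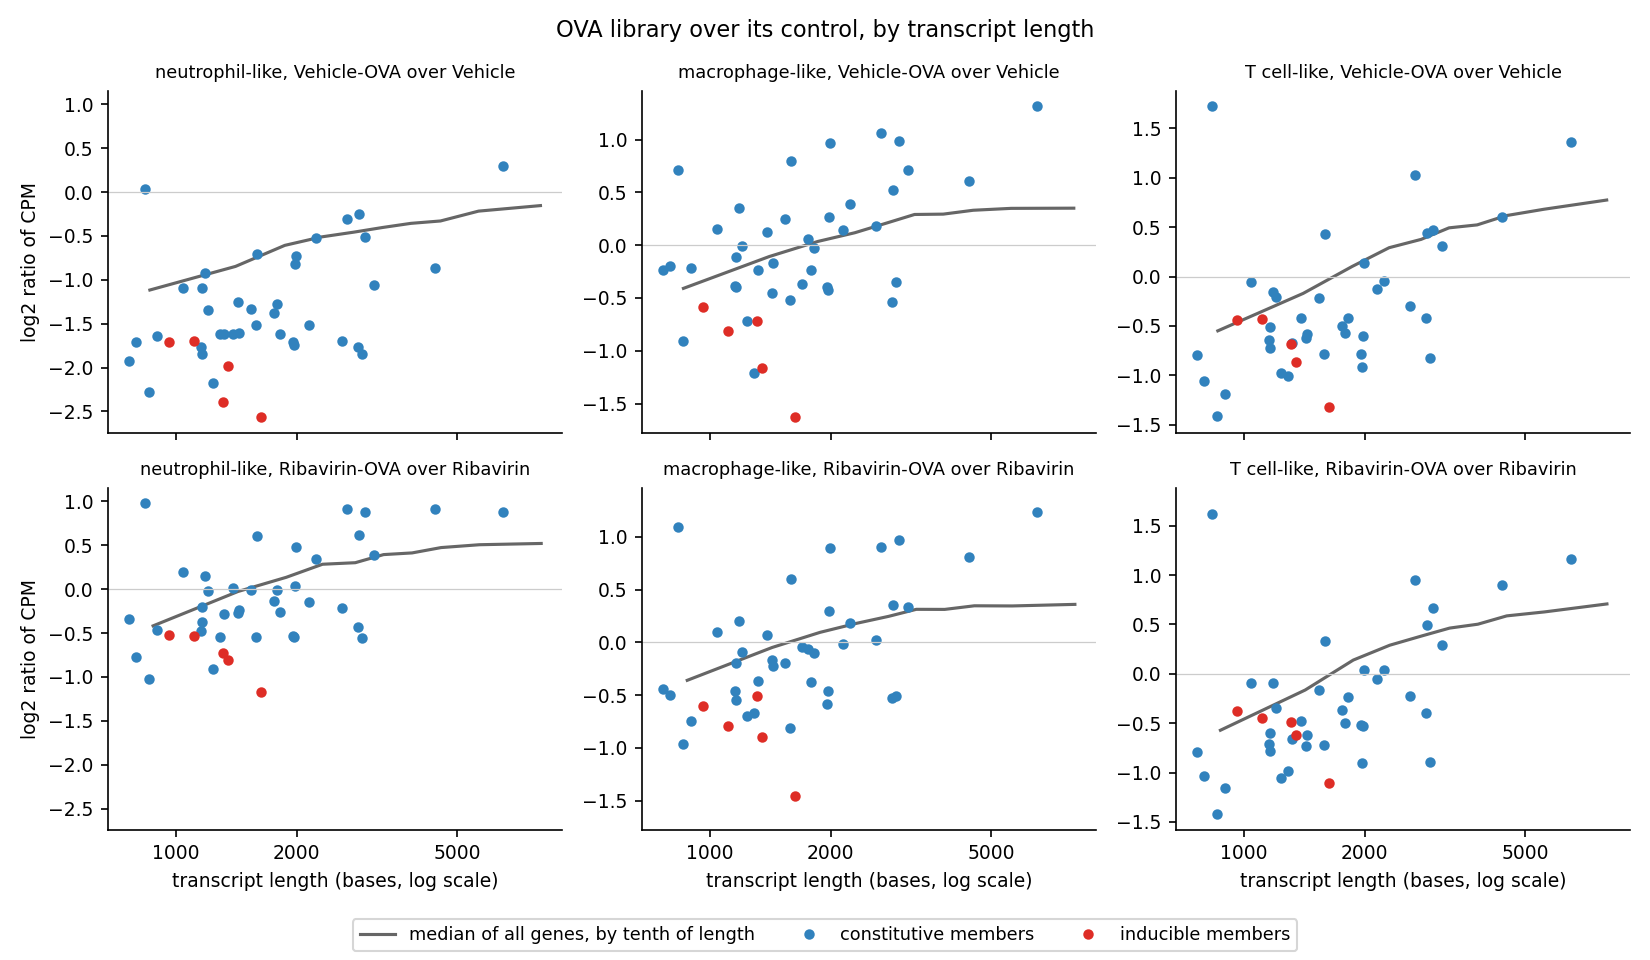
Log2 ratio of CPM, ovalbumin library over control, against transcript length in bases (log axis) for constitutive (blue) and inducible (red) members with at least 20 UMIs over the pair, in 3 cell classes and 2 pairs, with the median of all genes in 10 bins of length in grey. Short members tend to lie lower than long ones, and in macrophage-like cells Psmb8 is the lowest member in both pairs (log2 -1.63 and -1.46).

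RNA of other cells also differed between the libraries, and its part in the result was not tested. In macrophage-like cells the 8 neutrophil markers summed to 418, 867, 458 and 438 CPM and the 7 monocyte markers to 563, 1086, 480 and 1230 CPM, with no marker at 0 in any library. The odorant-binding protein transcript Obp1a, made by nasal glands, was at 388 CPM in these cells of Vehicle and at 14.3 CPM in those of Vehicle-OVA. Of 10 abundant transcripts of other cells, listed to follow free RNA, 4 were past 1.5-fold higher and 5 lower in the macrophage-like class of Vehicle-OVA. Of all genes tested there, 22.9% were higher and 10.7% lower. Neutrophil markers in T cell-like cells summed to 204, 448, 229 and 237 CPM, with none at 0. Plasma cell markers in neutrophil-like cells summed to 403, 116, 337 and 254 CPM, with none at 0. Leaving out cells with more than 2 times the median UMIs of their class gave a log2 of inducible over constitutive of -0.81 for macrophage-like cells in Ribavirin-OVA.

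Relative to all constitutive members, the inducible level was lower across the smaller classes too. For these classes the comparison with the core subunits alone, against which the T cell-like value was smaller in size, is not given here. As a log2 of inducible over constitutive, Vehicle-OVA over Vehicle and Ribavirin-OVA over Ribavirin, it was -0.82 and -0.77 in monocyte-like, -0.67 and -0.84 in conventional dendritic cell-like and -0.35 and -0.27 in plasmacytoid dendritic cell-like cells. B cell-like cells had -0.85 and -0.52, plasma cell-like cells -0.52 and -0.52, and group 2 innate lymphoid cell-like cells -0.58 and -0.91. The group 2 innate lymphoid cell-like class also carried T cell markers, at 776, 1600, 588 and 1775 CPM over the 4 libraries. In T cell-like cells these markers were at 3774, 3654, 3587 and 3703 CPM, and the part of this mixture in the result was not tested. NK cell-like cells had -0.27 and -0.26 and epithelial-like cells -0.34 and -0.31. The inducible share of catalytic UMIs in plasmacytoid dendritic cell-like cells was 75.8%, 73.5%, 76.5% and 76.3%, and so, as in T cell-like cells, it differed little. In conventional dendritic cell-like cells it was 78.9%, 69.7%, 79.3% and 73.3%.

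Ribavirin without ovalbumin was accompanied by few differences among the members. In macrophage-like cells 0 of 39 constitutive members were past 1.5-fold in either direction in Ribavirin over Vehicle, where 2.25% of all genes were higher and 0.497% lower, and the inducible over constitutive log2 was -0.04. The T cell-like class also had 0 of 38 in both directions, beside 2.45% and 0.508% of all genes. Neutrophil-like cells had a constitutive fold of 0.747 and an inducible fold of 0.687, with 0 constitutive and 2 inducible members past the threshold and lower, beside 4.08% of all genes higher and 2.79% lower. The lower ones were Psmb10 and Psmb8 (log2 -0.59 each), and the lowest constitutive members were Psma5 (log2 -0.58) and Psmd14, the deubiquitinase of the lid (log2 -0.57).

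Between the 2 ovalbumin libraries, neutrophil-like cells were the exception. The constitutive sum was 1.77-fold (1.74 to 1.80) higher and the inducible sum 1.67-fold higher in Ribavirin-OVA than in Vehicle-OVA, with 30 constitutive and 5 inducible members past 1.5-fold higher and 0 lower. Of all genes tested 55.5% were higher there and 4.67% lower, and the median of all genes was 0.66. Relative to that median 1 member was past 1.5-fold higher and 0 lower, so nearly all members lay within 1.5-fold of it. Psmd5, a chaperone of the regulatory particle (log2 1.28), and Psmb3 (log2 1.21) had the largest values. In macrophage-like cells 1 constitutive member was lower and 0 higher, beside 2.57% and 4.94% of all genes. The lower one was Psmb5 (117 against 75.2 CPM, log2 -0.63). T cell-like cells had 0 in both directions, beside 4.02% higher and 3.63% lower of all genes. These pairs share libraries with the ovalbumin comparisons and are not independent of them.

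Genes that work with the proteasome were counted by lists. Of 5 measured assembly chaperones, which help to build the core, all were past 1.5-fold lower in neutrophil-like cells of Vehicle-OVA and 2 in Ribavirin-OVA, beside 43.8% and 8.02% of all genes. In macrophage-like cells Psmg4 alone was lower in both pairs (42.4 against 91.0 CPM in Vehicle-OVA, log2 -1.08). In T cell-like cells 2 were lower in Vehicle-OVA (Psmg1 and Psmg4) and 3 in Ribavirin-OVA, with Pomp, the maturation factor of the core, at 201 against 324 CPM (log2 -0.69), beside 11.2% and 10.5% of all genes. Of 11 accessory factors 3 were higher and 0 lower in macrophage-like cells of Vehicle-OVA (Ube3c, Rad23b and AI314180), and 4 were higher and 1 lower in T cell-like cells, close to the 22.9% and 35.8% of all genes that were higher. Accessory genes in neutrophil-like cells were 0 higher and 7 lower in Vehicle-OVA and 2 higher and 0 lower in Ribavirin-OVA. Of all genes, 12.4% were higher and 43.8% lower in Vehicle-OVA, and 28.1% higher and 8.02% lower in Ribavirin-OVA. List medians in macrophage-like cells of Vehicle-OVA were -0.29 for the assembly chaperones and 0.46 for the accessory factors, beside 0.17 for all genes.

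Ubiquitin genes were split by kind. In macrophage-like cells of Vehicle-OVA, Ubb, a polyubiquitin gene, and Rps27a, a ubiquitin fusion to a ribosomal protein, were lower (Ubb at 638 against 1683 CPM, log2 -1.40). The activating enzymes Uba1 and Uba6 and the unfoldase genes Vcp and Nploc4 were higher (Vcp at 337 against 202 CPM, log2 0.73). Among all genes tested in this class and pair, 22.9% were higher and 10.7% lower. Counts over the whole ubiquitin list are not given here, so the named genes cannot be set against these shares. Rps27a is counted among the ribosomal protein genes as well.

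Interferon-related genes and class I MHC genes were counted as well. In T cell-like cells Nlrc5, the transactivator of class I MHC genes, was at 83.1 against 34.4 CPM in Vehicle-OVA (log2 1.25), and Tap1, a peptide transporter subunit, at 246 against 163 CPM (log2 0.59). Of 20 interferon-stimulated genes 12 were higher and 3 lower in Vehicle-OVA and 14 higher and 3 lower in Ribavirin-OVA, and of 11 class I MHC genes 4 and 3 were higher and 0 lower, beside 35.8% and 33.6% of all genes higher, so the class I count was near the background. In macrophage-like cells 6 of the 20 were higher and 7 lower in Vehicle-OVA, beside 22.9% of all genes higher and 10.7% lower. Cxcl9, an interferon gamma target, was at 88.1 against 679 CPM (log2 -2.93), while Rsad2 had a log2 of 2.26, and Tap1 was at 131 against 152 CPM (log2 -0.21). The list of transcription factors of proteasome genes also holds Ddi2, which processes Nfe2l1 and is not itself such a factor. Ddi2 was the 1 of 7 genes past the threshold in macrophage-like cells in both pairs (143 against 75.6 CPM in Vehicle-OVA, log2 0.91). Irf1 had a log2 of -0.19 there, inside the threshold. In neutrophil-like cells of Vehicle-OVA Nfe2l2 and Nlrc5 were higher and Irf1 was lower. Genes known to respond to tissue dissociation, such as Dusp1 and Hspa1b, had 4 of 9 higher and 1 lower in macrophage-like, 3 higher and 0 lower in neutrophil-like and 4 higher and 0 lower in T cell-like cells of Vehicle-OVA, beside 22.9%, 12.4% and 35.8% of all genes higher, and their part in the result was not tested.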

How the data were processed

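The authors deposited raw UMI count matrices of 4 libraries, 1 for each group, made per the labels with Cell Ranger 5.0.0 on mm10. The annotation behind the counts is not given in the sources used here. Cells with at least 500 UMIs, at least 200 genes and under 10% mitochondrial UMIs were kept. A cell was assigned to a class with at least 3 marker UMIs from at least 2 markers of that class and at least 2 times the UMIs of the next class, from 93 markers of 14 classes. Cells with mixed markers were left out, and no doublet caller was run.

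For each class of each library UMIs were summed and divided by all UMIs of the class (CPM). With 1 library per group no test was possible. Counting intervals at the 95% level were exact Poisson for sums, Clopper-Pearson for shares, exact conditional binomial for folds, and Wald for log2 ratios of 2 sets. The log2 differences of single genes used a pseudocount of 1 CPM. The scripts were tested on simulated counts. Named members were the 8 genes of the exchange pairs and cap. Others were drawn from the 2 highest and 2 lowest constitutive members of each comparison and the extreme member of each class. Some of these extremes are not printed. Psmd2, Psmd7 and Psmd13 were chosen after their values were seen. Members, markers and the 8 gene lists (86 genes) were chosen with earlier results of these data known, and some listed genes are not reported here. Transcript lengths and positions came from GENCODE M21, taking the longest protein-coding transcript of a gene. Alternatives covered the cell filters, class rule, scaling, sets, fold and thinning. Python 3.11.15, numpy 2.4.6, scipy 1.17.1, pandas 2.3.3 and matplotlib 3.10.9 were used.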

Additional observations from a re-analysis of the deposited data

Results flagged for a closer look

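Pairs of libraries under the same contrast that moved in opposite directions are given here as values, and no difference between the pairs was tested, since each group was 1 library. In neutrophil-like cells the constitutive sum was 0.747-fold in Ribavirin over Vehicle and 1.77-fold in Ribavirin-OVA over Vehicle-OVA, and the inducible sum 0.687-fold and 1.67-fold. In these cells the Vehicle-OVA library was the lowest of the 4 for both sums.

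Macrophage-like cells had a log2 of inducible over constitutive of -0.041 in Ribavirin over Vehicle and 0.18 in Ribavirin-OVA over Vehicle-OVA, and T cell-like cells had -0.039 and 0.071, with inducible folds of 0.963 and 1.05. In conventional dendritic cell-like cells the order was the opposite, 0.061 and -0.10. B cell-like cells had an inducible fold of 0.877 in Ribavirin over Vehicle and 1.25 in Ribavirin-OVA over Vehicle-OVA.

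Plasma cell-like cells had a constitutive fold of 0.927 in Vehicle-OVA over Vehicle and 1.10 in Ribavirin-OVA over Ribavirin. For ribavirin their constitutive folds were 0.976 without and 1.16 with ovalbumin, and their inducible folds 0.968 and 1.14. These differences are small beside those of the neutrophil-like class.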

How the results depend on the processing

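Each of 68 results was recomputed under the alternatives (760 values), and some changed sign. Among the main results these were the T cell-like ratio, against Psmb5 to Psmb7 in both pairs and against core subunits in Ribavirin-OVA, and the contrast of macrophage-like over neutrophil-like cells in Vehicle, which was 0.02 as reported. Others near 0 also did, namely the contrasts of T cell-like over neutrophil-like cells in Vehicle-OVA (-0.077 as reported, up to 0.49) and macrophage-like over neutrophil-like cells in Ribavirin-OVA (-0.039, up to 0.0014), and, for Ribavirin-OVA over Vehicle-OVA, the neutrophil-like ratio (-0.083, up to 0.077) and the T cell-like constitutive difference (0.0038, down to -0.034). Of the values for the main results 229 stayed within the counting interval of the main value or within 1.5 times a count, and 105 moved beyond it. No paired analysis was possible because each group was 1 library. Pairs below are Vehicle-OVA over Vehicle and then Ribavirin-OVA over Ribavirin. With Psmb5, Psmb6 and Psmb7 as the only constitutive genes the log2 of inducible over constitutive was 0.14 and 0.28 in T cell-like cells (main -0.36 and -0.25), -0.51 and -0.28 in neutrophil-like and -0.84 and -0.42 in macrophage-like cells, and in Vehicle 0.045 for macrophage-like and -0.16 for T cell-like over neutrophil-like cells. Against core subunits, an alternative chosen after seeing the data, it was -0.39 and -0.40 in neutrophil-like, -0.75 and -0.51 in macrophage-like and -0.12 and 0.024 in T cell-like cells. Without Psme1 and Psme2 it was -0.99 and -0.85, -1.27 and -0.95, and -0.67 and -0.46 in these classes, and -0.30 for T cell-like over neutrophil-like cells in Vehicle. The cause of the other moves was not tested.

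Scaling moved the constitutive log2 difference most. Relative to the median of all genes it was -0.90 and -0.42 in neutrophil-like, -0.19 and -0.34 in macrophage-like and -0.80 and -0.77 in T cell-like cells, and counts of members past 1.5-fold became 1 higher for neutrophil-like cells in Vehicle-OVA, 18 lower for them in Ribavirin-OVA, 5 higher and 18 lower for macrophage-like cells in the first and second pair, and 28 lower, 3 higher and 27 lower for T cell-like cells. Without ribosomal and mitochondrial genes the constitutive log2 difference was -1.46 and -0.17, -0.16 and -0.24, and -0.63 and -0.60, and the lower members in Ribavirin-OVA numbered 10 in neutrophil-like and 15 in macrophage-like cells. At a fold of 2 there were 0 higher and 2 lower members in neutrophil-like cells of Ribavirin-OVA, 2 higher and 3 lower and then 2 higher and 1 lower in macrophage-like cells, and 5 lower and then 2 higher and 5 lower in T cell-like cells.

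The cell rules moved values less. With each cell thinned to 1000 UMIs, macrophage-like over neutrophil-like cells in Vehicle stood at -0.049, the neutrophil-like ratio in Vehicle-OVA at -0.79 and the T cell-like ratio in Ribavirin-OVA at -0.36, the constitutive differences at -1.31 and -0.063 in neutrophil-like, -0.076 in macrophage-like and -0.37 in T cell-like cells of Ribavirin-OVA, and the catalytic shares in Vehicle at 75.3%, 75.2% and 74.3%. With the mean of single-cell CPM the same values were -0.017, -0.79 and -0.34, then -1.29 and -0.073, -0.035 and -0.38, and 75.1%, 75.2% and 74.7%, with ratios of -1.03 for macrophage-like and -0.43 for T cell-like cells of Vehicle-OVA. Without cells over 2 times the median UMIs, T cell-like over neutrophil-like was -0.30, the constitutive differences -1.48 and -0.060 in neutrophil-like, -0.11 in macrophage-like and -0.37 in T cell-like cells of Ribavirin-OVA, the ratios -0.81 in macrophage-like cells of Ribavirin-OVA and -0.42 and -0.33 in T cell-like cells, and the T cell-like share 74.9%. At 2000 UMIs or more per cell the class contrasts in Vehicle were 0.069 and -0.34, the neutrophil-like ratio and constitutive difference in Vehicle-OVA -0.59 and -1.48, and the share 73.2%. The looser class rule gave -0.36 for T cell-like over neutrophil-like cells, constitutive differences of -1.28 and -0.18 in neutrophil-like, -0.044 in macrophage-like cells of Vehicle-OVA and -0.45 in T cell-like cells of Ribavirin-OVA, and 11 lower members in neutrophil-like cells of Ribavirin-OVA. The stricter rule gave -0.43, constitutive differences of -1.44 and -0.10 in neutrophil-like and -0.49 and -0.45 in T cell-like cells, a T cell-like ratio of -0.16 in Ribavirin-OVA and a share of 72.7%. A mitochondrial limit of 5% gave constitutive differences of -1.41 in neutrophil-like cells of Vehicle-OVA, -0.0055 and -0.080 for macrophage-like and -0.40 for T cell-like cells of Ribavirin-OVA, and a T cell-like ratio of -0.31 in Vehicle-OVA. Other alternatives moved none of these results. For the results other than the main ones, 97 values moved and 329 did not.

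Limits are these. Depth sets the counting intervals only, and the spread between mice is unknown. Classes rest on marker UMIs, so a shift within a class, a library effect and a response to treatment cannot be told apart.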

Other observations

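Cells within the classes were also split by a UMI of 1 gene each, a choice made after seeing the data, and the values are descriptions without a test. Macrophage-like cells with a UMI of Arg1, the arginase of alternatively activated macrophages, numbered 128, 1454, 208 and 1091 over the libraries in the order of the report, and those without numbered 3960, 293, 2723 and 282. The inducible share of catalytic UMIs was 70.1%, 56.7%, 68.8% and 63.3% with Arg1 and 74.8%, 66.1%, 73.6% and 71.9% without. Cells with Arg1 were thus lower in every library, and the ovalbumin libraries were lower within both kinds of cells. The log2 of inducible over constitutive was -1.14, -2.01, -1.17 and -1.84 with Arg1 and -0.96, -1.53, -0.99 and -1.42 without. In the ovalbumin libraries cells with Arg1 were deeper (median 9976 and 9881 UMIs) than those without (5037 and 4631 UMIs), which also changes the chance of an Arg1 UMI.

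Neutrophil-like cells with a UMI of Siglecf, a receptor of eosinophils and of some tissue neutrophils, had a higher constitutive proteasome level than those without in every library. It was 3978, 2350, 3543 and 3001 CPM with Siglecf (2710, 1017, 1921 and 669 cells) and 2442, 1071, 1788 and 1814 CPM without (4468, 10110, 4856 and 1924 cells). Their catalytic inducible share was 69.9%, 61.5%, 68.3% and 65.4% with and 78.3%, 61.6%, 74.0% and 63.4% without, so it was lower with Siglecf in both control libraries. In every library cells with Siglecf were deeper (median 3186, 3332, 3404 and 3469 UMIs) than those without (2088, 2912, 2669 and 2775 UMIs). Depth also changes the chance of a Siglecf UMI.

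T cell-like cells with a UMI of Foxp3, the regulator of regulatory T cells, had a higher inducible sum in every library, 2451, 1556, 2304 and 1437 CPM against 1895, 1082, 1821 and 1152 CPM in cells without it, from 423, 43, 328 and 56 cells with the UMI. Their constitutive sum was also higher in every library, 5644, 4296, 5419 and 4238 CPM against 4985, 3675, 4939 and 3685 CPM. The catalytic inducible share was 73.8%, 75.3%, 73.7% and 72.2% with Foxp3 and 73.0%, 70.3%, 71.5% and 72.9% without. Cells with Foxp3 were deeper in every library (median 4849, 5304, 5184 and 5779 UMIs) than those without (4171, 4663, 4883 and 5426 UMIs). Depth likewise changes the chance of a Foxp3 UMI.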
